A study of Oryza sativa with 4 samples.

Results

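The 10 genes described here make, inactivate or sense gibberellin in rice (Oryza sativa). They were picked by locus identifier out of the 55985 identifiers that each library lists, with earlier results of these data known. Counts of them beside shares of all genes thus describe the list and do not test it. The 10 are the synthesis genes GA20ox1, GA20ox2 and GA3ox2, the inactivation genes GA2ox1, GA2ox3, GA2ox6 and EUI, and the signalling genes GID1, GID2 and SLR1. Messenger RNA of aerial seedling parts was sequenced from 4 pools, 1 for each combination of the indica cultivar 93-11 or the japonica cultivar Nipponbare with chilling or no treatment. The groups were thus 93-11 chilled, 93-11 untreated, Nipponbare chilled and Nipponbare untreated. All seedlings were 15 days old and came from a flooded greenhouse culture (28 °C days, 25 °C nights), and the chilled ones were held at 4 °C for 33 h. With 1 pool per group there are no replicates. P-values for chilling rest on how far the cultivars disagreed and on the spread of other genes of like level, and intervals cover counting error only.

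Gibberellins are diterpenoid hormones that promote elongation of stems and leaves. GA20ox and GA3ox enzymes make the bioactive forms, while GA2ox enzymes and the cytochrome P450 EUI inactivate them. Once it has bound hormone, the receptor GID1 holds the DELLA protein SLR1, a repressor of growth, which the F-box protein GID2 then marks for breakdown. In Arabidopsis, cold is known to raise GA2ox transcripts and DELLA protein.

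Totals worked out from the values ranged from 12671333 to 16682882 reads per library. Levels below are RPKM, reads per kilobase of gene scaled to the library total, after further scaling between libraries by trimmed mean of M-values (TMM). The green-shoot markers RBCS, CAB1R and RCA summed to 6740 RPKM in chilled and 34900 in untreated 93-11, and to 8720 in chilled and 25100 in untreated Nipponbare. All 3 were lower in chilled than in untreated libraries, and 2 of them passed the test described below. Their falls were unequal. CAB1R was 82.4-fold lower in chilled 93-11 and 278-fold lower in chilled Nipponbare. RBCS was 4.31-fold and 1.98-fold lower, and RCA 4.77-fold and 3.16-fold lower, in the same order. The root markers HKT2;1, LSI1 and LSI2 summed to 6.40 RPKM in chilled and 8.34 in untreated 93-11, and to 1.53 in chilled and 6.12 in untreated Nipponbare, with LSI2 at 0 in 3 libraries. The meristem markers OSH1 and OSH15 never exceeded 2 reads. The part of these shifts in the results below was not tested. Nor was the part in them of fewer cells of a type, or of less RNA per cell, in the pooled tissue.

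The name GID2 of LOC_Os02g36974 is uncertain. In RefSeq's gene list for assembly ASM3414082v1, 1 entry carries the name GID2 together with GF14E, a gene of the unrelated 14-3-3 family, and it overlaps another entry named GID2. Reads of overlapping genes cannot be told apart here, so this locus is called by its identifier. The same list places GA20ox2, EUI, SLR1 and GID1 on the chromosome and in the gene order that their identifiers give. It holds no entry named GA20ox1, GA3ox2, GA2ox1, GA2ox3 or GA2ox6, and these names came with the loci.

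The first question was which of these genes moved with chilling across both cultivars. The synthesis genes GA20ox1 and GA20ox2 fell to between 0.408 and 0.64 RPKM in chilled seedlings, against 4.44 to 8.63 RPKM in untreated ones. The inactivation gene GA2ox3 and the signalling loci GID1, SLR1 and LOC_Os02g36974 rose, by 1.17 to 1.29 on the log2(RPKM + 1) scale. Of the 10 genes 4 rose and 2 fell, and 46.8 percent of all tested genes were called, 23.1 percent higher and 23.7 percent lower. The test was limma, fitted to log2(RPKM + 1) with cultivar and treatment as terms and called at a Benjamini-Hochberg adjusted p under 0.05. On simulated data limma made false calls more often than this threshold states. The test covered the 19466 genes whose deposited value reached 1 RPKM in 2 or more libraries, 7 of the 10 among them. GA20ox1 and GA20ox2 passed this filter only through their untreated libraries, which favours a low ratio. Both calls stood with no filter (limma adjusted p = 0.00909 for GA20ox1 and 0.0147 for GA20ox2). GA3ox2 passed the filter only through 93-11. GA2ox1 stayed under 1 RPKM in all libraries, and GA2ox6 and EUI reached that level in chilled Nipponbare alone, so these 3 were not tested.

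**Figure D1:**
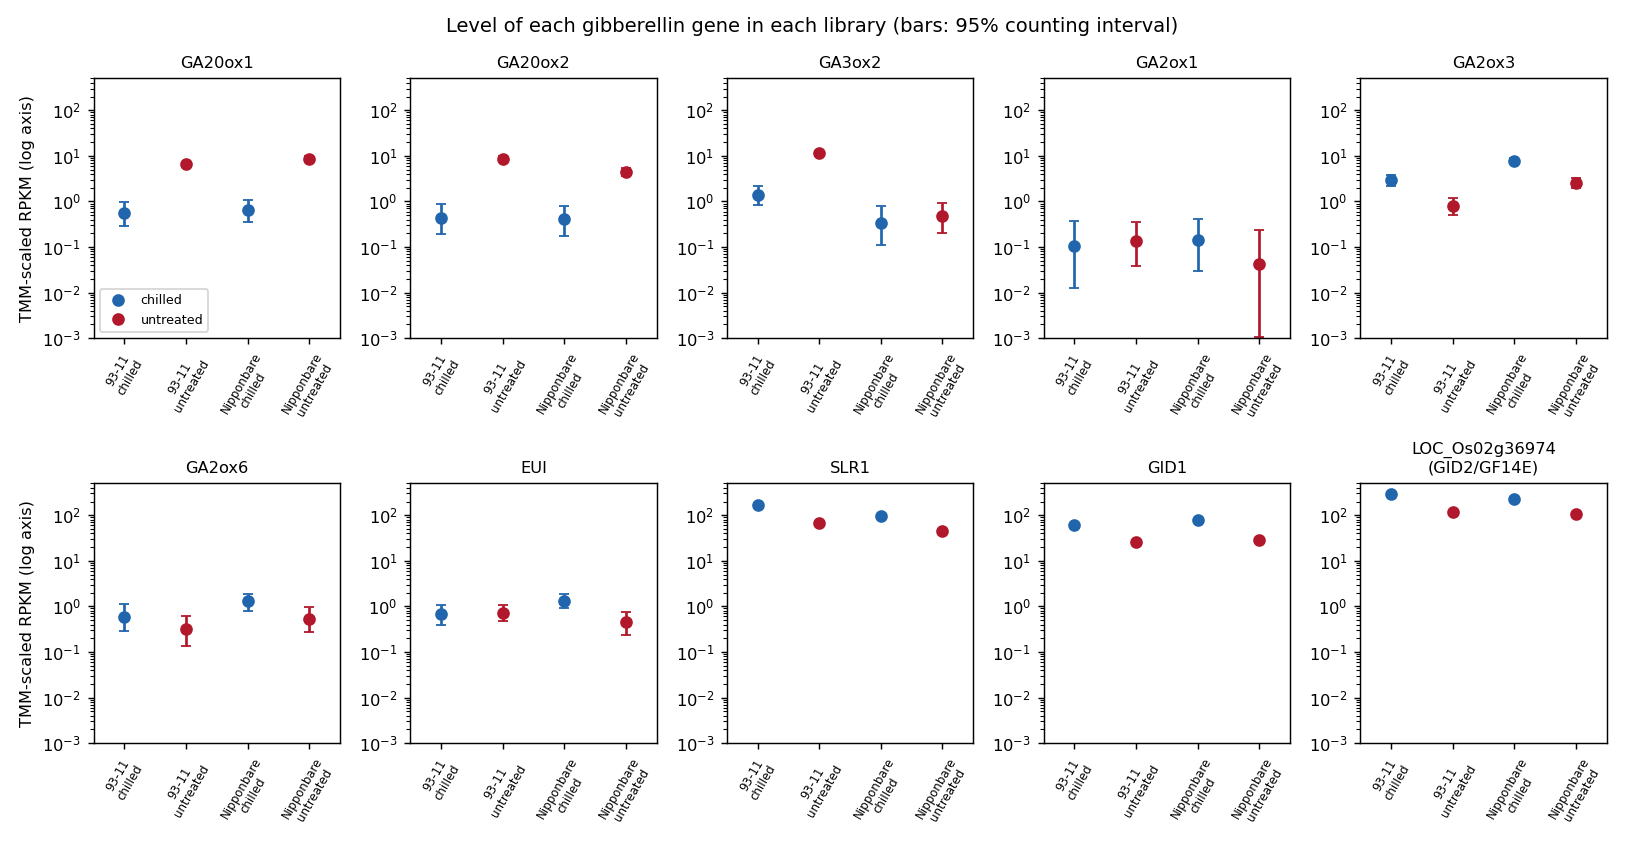
TMM-scaled RPKM (log axis) of each of the 10 genes in each library, chilled in blue and untreated in red, with 95% counting intervals. GA20ox1 and GA20ox2 lie lower, and SLR1, GID1 and LOC_Os02g36974 higher, in both chilled libraries than in both untreated ones.

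GA20ox1 (LOC_Os03g63970) encodes an oxidase that makes the precursors of bioactive gibberellin. In 93-11 it had 12 reads chilled and 214 untreated, or 0.552 and 6.57 RPKM. In Nipponbare GA20ox1 had 15 reads chilled and 226 untreated, or 0.64 and 8.57 RPKM. Both chilled libraries lay far below both untreated ones. GA20ox1 fell by 2.42 on the log2(RPKM + 1) scale (SE 0.28, limma adjusted p = 0.00336, lower in both cultivars). That scale understates the change of low genes. By ratio of scaled reads GA20ox1 was 11.5-fold lower in chilled 93-11 and 13.0-fold lower in chilled Nipponbare.

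GA20ox2 (LOC_Os01g66100) encodes the same kind of enzyme and is the rice semidwarf gene SD1. In 93-11 it had 8 reads chilled and 235 untreated, or 0.44 and 8.63 RPKM. In Nipponbare GA20ox2 had 8 reads chilled and 98 untreated, or 0.408 and 4.44 RPKM. The intervals of both chilled libraries overlapped, and the untreated 93-11 library was the highest. GA20ox2 fell by 2.35 (SE 0.32, limma adjusted p = 0.00505, lower in both cultivars), with read ratios 18.5-fold lower in 93-11 and 10.3-fold lower in Nipponbare. The level of GA20ox1 was 0.761 times that of GA20ox2 in untreated 93-11 and 1.93 times it in untreated Nipponbare. Their counting intervals did not overlap in either untreated library, and overlapped in both chilled ones.

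GA3ox2 (LOC_Os01g08220) encodes the enzyme of the final step to bioactive gibberellin. In 93-11 it had 19 reads chilled and 240 untreated, or 1.37 and 11.6 RPKM. In Nipponbare GA3ox2 had 5 reads chilled and 8 untreated, or 0.335 and 0.476 RPKM. The untreated 93-11 library stood well above the rest, and the chilled and untreated groups overlapped. GA3ox2 did not pass the test (-1.28 ± 0.56, limma adjusted p = 0.12). It passed with voom, limma's weighting applied to whole reads (adjusted p = 0.0262, range over alternatives 0.0262 to 0.448).

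GA2ox3 (LOC_Os01g55240) had the highest level of the inactivation genes among the 10 in every library. In untreated 93-11 its interval overlapped that of EUI. LOC_Os05g11810, a further locus listed for inactivation without a placed name, was higher in every library, and was named after its values were seen. It had 20.4 RPKM in chilled and 12.3 in untreated 93-11, and 13.9 in chilled and 13.2 in untreated Nipponbare. In 93-11 GA2ox3 had 60 reads chilled and 24 untreated, or 2.92 and 0.78 RPKM. In Nipponbare GA2ox3 had 173 reads chilled and 64 untreated, or 7.81 and 2.57 RPKM. Each chilled library exceeded the untreated one of its cultivar, while the intervals of chilled 93-11 and untreated Nipponbare overlapped. GA2ox3 rose by 1.22 ± 0.27 (limma adjusted p = 0.0198, higher in both cultivars). The call ended with no filter on low values and without the cultivar term (limma adjusted p = 0.07 and 0.188, range over alternatives 0.00751 to 0.188).

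GA2ox6 (LOC_Os04g44150) encodes another inactivating oxidase. In 93-11 it had 10 reads chilled and 8 untreated, or 0.599 and 0.319 RPKM. In Nipponbare GA2ox6 had 23 reads chilled and 11 untreated, or 1.28 and 0.542 RPKM. The counting interval of its log2 ratio held 0 in 93-11 (0.89, -0.59 to 2.45) and lay above 0 in Nipponbare (1.20, 0.14 to 2.42).

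EUI (LOC_Os05g40384) is named for the elongated uppermost internode of plants that lack it. In 93-11 it had 16 reads chilled and 26 untreated, or 0.672 and 0.729 RPKM. In Nipponbare EUI had 34 reads chilled and 13 untreated, or 1.32 and 0.45 RPKM. Chilled Nipponbare had the highest level, and its interval overlapped those of both 93-11 libraries. GA2ox1 (LOC_Os05g06670), an inactivating oxidase as well, had 2 reads in chilled and 4 in untreated 93-11, and 3 in chilled and 1 in untreated Nipponbare, so no difference was detectable at this depth.

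The 3 loci listed for signalling held 90.6 to 98.9 percent of the reads of the 10 genes in each library. The largest part came from LOC_Os02g36974, whose name is uncertain. SLR1 (LOC_Os03g49990), the DELLA gene, had 4912 reads chilled and 2964 untreated in 93-11, or 164 and 66.0 RPKM. In Nipponbare SLR1 had 3065 reads chilled and 1667 untreated, or 94.8 and 45.8 RPKM. Both chilled libraries were above both untreated ones, and 93-11 was above Nipponbare in either condition. SLR1 rose by 1.17 ± 0.21 (limma adjusted p = 0.0102, higher in both cultivars), a call that ended without the cultivar term (limma adjusted p = 0.0786, range over alternatives 0.00251 to 0.0786).

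GID1 (LOC_Os05g33730), the receptor gene, had 1592 reads chilled and 1029 untreated in 93-11, or 61.1 and 26.4 RPKM. In Nipponbare GID1 had 2222 reads chilled and 928 untreated, or 79.1 and 29.3 RPKM. The chilled libraries did not overlap the untreated ones. GID1 rose by 1.29 ± 0.20 (limma adjusted p = 0.00747, higher in both cultivars).

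LOC_Os02g36974 had 5292 reads chilled and 3208 untreated in 93-11, or 288 and 117 RPKM. In Nipponbare it had 4536 reads chilled and 2424 untreated, or 229 and 109 RPKM. The chilled libraries did not overlap the untreated ones, and LOC_Os02g36974 rose by 1.18 ± 0.22 (limma adjusted p = 0.011, higher in both cultivars). Whether these reads come from GID2 or GF14E transcripts cannot be told apart.

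Scaling bears on moderate changes. Higher genes made up 49.4 percent of all calls under TMM. Their share was 39.7 percent for the deposited values and 77.3 percent after scaling to 4 reference loci, of which 2 themselves fell with chilling. The RefSeq list places the name of only 1 of these 4 loci. The median change of all tested genes was -0.09 under TMM, -0.27 for the deposited values and 0.48 after scaling to the reference loci. The 7 tested genes kept the sign of their chilling change under all 9 alternatives.

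A further 19 loci listed for the pathway were counted beside them, and the RefSeq list places the names of 9. Of those 9, 7 passed the filter, where 1 rose and 2 fell. Of all tested genes 23.1 percent rose and 23.7 percent fell, so these counts do not set the list apart. The median change of these 7 was -0.72, against -0.09 for all tested genes. The 2 that fell, KS1 and KAO, act early in synthesis. KS1, the ent-kaurene synthase gene, had 7.09 RPKM in chilled and 21.7 in untreated 93-11, and 4.00 in chilled and 9.58 in untreated Nipponbare (-1.29 ± 0.26, limma adjusted p = 0.0151). KAO, the ent-kaurenoic acid oxidase gene, had 1.63 RPKM in chilled and 3.58 in untreated 93-11, and 0.408 in chilled and 3.52 in untreated Nipponbare (-1.24 ± 0.33, limma adjusted p = 0.0307). The KS1 call ended without the cultivar term and when scaled to reference loci (range over alternatives 0.00575 to 0.123). The KAO call ended under these and with no filter (range 0.0236 to 0.115).

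**Figure D2:**
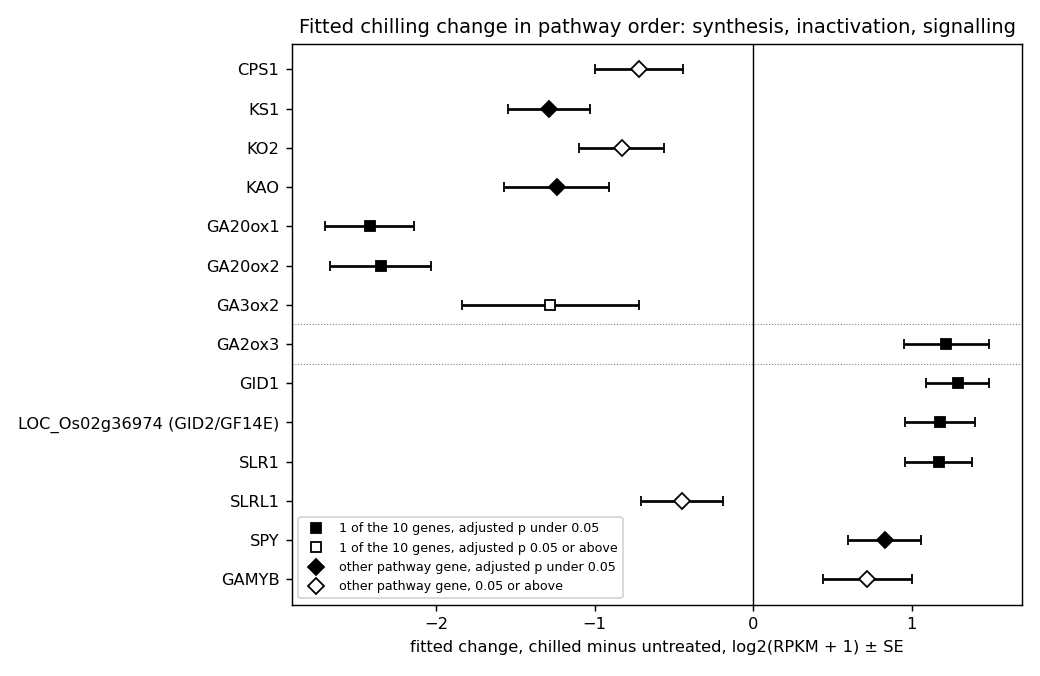
Fitted chilling change on the log2(RPKM + 1) scale ± SE (x axis) of the tested genes, in pathway order down the page. Squares are from the 10 genes, diamonds are other pathway genes whose names were placed, and filled symbols have an adjusted p under 0.05. The 7 synthesis genes shown, from CPS1 to GA3ox2, lie left of 0, and KS1, KAO, GA20ox1 and GA20ox2 of them are filled. LOC_Os05g34854, listed for synthesis without a placed name, is not shown and had -0.08 ± 0.43.

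CPS1 encodes the first committed enzyme of the route. It had -0.72 ± 0.28 (limma adjusted p = 0.0878), and passed with the deposited values unscaled (range over alternatives 0.0463 to 0.642). KO2, an ent-kaurene oxidase gene, had -0.83 ± 0.27 (limma adjusted p = 0.0557, range over alternatives 0.0302 to 0.506). Its entry in the RefSeq list merges the names of several kaurene oxidases and overlaps another gene, so KO2 is uncertain as a single gene.

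SPY, whose product attaches a sugar to proteins and is known to restrain gibberellin responses, had 43.1 RPKM in chilled and 19.9 in untreated 93-11, and 28.1 in chilled and 18.4 in untreated Nipponbare. SPY rose by 0.83 ± 0.23 (limma adjusted p = 0.0358, higher in both cultivars). The call ended without the intensity trend, without the cultivar term and with the deposited values unscaled (range over alternatives 0.00565 to 0.0905). GAMYB, a gibberellin-responsive MYB factor gene, had 0.72 ± 0.28 (limma adjusted p = 0.0873, range over alternatives 0.0144 to 0.18). SLRL1, a relative of SLR1, had -0.45 ± 0.26 (limma adjusted p = 0.211, range over alternatives 0.112 to 0.998). The oxidase gene GA20ox3 and the amylase gene RAmy1A were listed at 0 in all 4 libraries. Of the 10 loci without a placed name, 6 passed the filter, and 2 rose and 0 fell, where 23.1 and 23.7 percent of all tested genes did.

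Summed by role, the synthesis genes GA20ox1, GA20ox2 and GA3ox2 had 2.36 RPKM in chilled and 26.8 in untreated 93-11, and 1.38 in chilled and 13.5 in untreated Nipponbare. The inactivation genes GA2ox1, GA2ox3, GA2ox6 and EUI had 4.30 RPKM in chilled and 1.97 in untreated 93-11, and 10.6 in chilled and 3.60 in untreated Nipponbare. The synthesis sum was therefore 0.55 of the inactivation sum in chilled and 13.6 times it in untreated 93-11. In Nipponbare it was 0.131 of it chilled and 3.74 times it untreated. These ratios carry no test, and their size depends on which loci are summed. Over all 6 loci listed as GA20ox or GA3ox and all 11 listed for inactivation, most without a placed name, the ratio was 0.157 in chilled and 1.37 in untreated 93-11, and 0.0591 in chilled and 0.815 in untreated Nipponbare. That wider sum was chosen after seeing the data. In both versions the ratio was lower in the chilled library of each cultivar, while the synthesis sum exceeded the inactivation sum in untreated Nipponbare only over the 10 genes.

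Below the signalling loci the order of the levels differed between libraries, with cultivar as well as with chilling. LOC_Os02g36974 was highest in every library, followed by SLR1 and then GID1, with counting intervals that did not overlap. Below them in untreated 93-11 came GA3ox2, GA20ox2 and GA20ox1, which did not overlap each other, and then GA2ox3 and EUI, which did. In untreated Nipponbare GA20ox1 (8.57 RPKM), GA20ox2 (4.44) and GA2ox3 (2.57) came next after GID1, with GA3ox2 at only 0.476. In chilled 93-11 GA2ox3 (2.92 RPKM) came next, followed by GA3ox2 (1.37). In chilled Nipponbare GA2ox3 came next after GID1, followed by EUI, GA2ox6 and GA20ox1 with overlapping intervals between neighbours. GA20ox1 exceeded 30.1 percent of the genes above 0 in chilled and 65.7 percent in untreated 93-11, and 31.7 percent in chilled and 68.5 percent in untreated Nipponbare. SLR1 exceeded 93.4 to 97.5 percent of them across the 4 libraries.

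The next question was how the response of 93-11 compared with that of Nipponbare. No test of that difference was possible with 1 library per group, so ratios of scaled reads are given with exact binomial 95% counting intervals. A gene counted as beyond 2-fold when its whole interval lay there. In 93-11, 4 of the 10 genes were higher and 3 lower beyond 2-fold, where 11.8 and 9.76 percent of the 36941 genes with a read were. In Nipponbare, 3 were higher and 2 lower, where 10.6 and 11.6 percent of all genes were. Of the genes past the filter, 36.3 percent were beyond 2-fold in either direction in 93-11 and 36.8 percent in Nipponbare. With the deposited values unscaled, the higher genes numbered 2 in 93-11 and 1 in Nipponbare. GA20ox1 and GA20ox2 were lower beyond 2-fold in both cultivars, and GA3ox2 in 93-11.

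**Figure D3:**
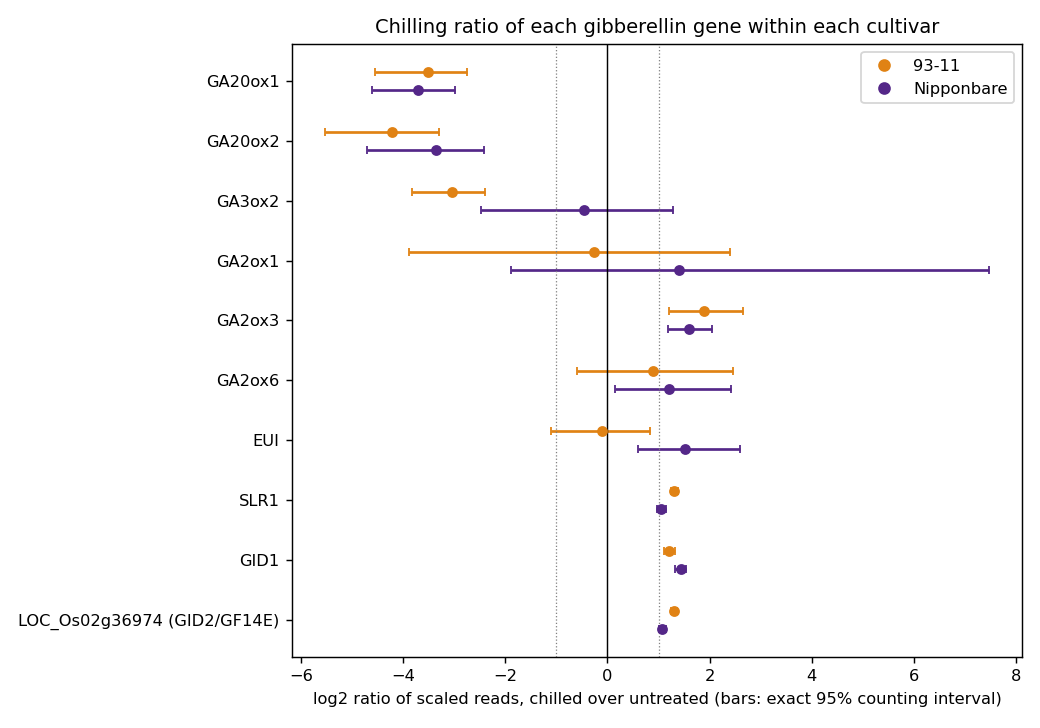
Log2 ratio of scaled reads, chilled over untreated (x axis), of each gene in 93-11 (orange) and Nipponbare (purple), with exact 95% counting intervals and dotted lines at 2-fold. The GA20ox1, GA20ox2 and GA2ox3 points of both cultivars lie close together beyond the dotted lines, and those of GA3ox2, GA2ox1 and EUI lie farther apart.

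GA3ox2 had the widest gap between cultivars of the 10 genes. Its log2 ratio was -3.04 in 93-11 (-3.83 to -2.40) and -0.46 in Nipponbare (-2.47 to 1.29), the second from 5 and 8 reads. The difference was -2.58, with a Wald 95% counting interval from -4.27 to -0.90. EUI had log2 ratios of -0.10 in 93-11 and 1.52 in Nipponbare, a difference of -1.62 (-2.89 to -0.35). Scaled to the reference loci, the ratio of GA3ox2 in Nipponbare was 0.30 and that of EUI in 93-11 was 0.59, so neither has a settled direction. For the most reduced genes the interval of the difference held 0: it was 0.18 (-0.93 to 1.29) for GA20ox1 and -0.84 (-2.26 to 0.57) for GA20ox2. That of GA2ox3, 0.29 (-0.50 to 1.08), held 0 as well.

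The deeply covered signalling loci had narrow intervals and small differences. SLR1 had log2 ratios of 1.31 in 93-11 and 1.05 in Nipponbare, a difference of 0.26 (0.16 to 0.37). LOC_Os02g36974 had 1.31 in 93-11 and 1.07 in Nipponbare, and GID1 had 1.21 in 93-11 and 1.43 in Nipponbare. The counting interval of the difference left out 0 for 5 of the 10 genes, where it did for 26.5 percent of all genes with a read, and for 46.4 percent of those past the filter. It was above 0 for SLR1 and LOC_Os02g36974, where 15.0 percent of all genes were, and below 0 for GA3ox2, EUI and GID1, where 11.4 percent were. The difference lay beyond 2-fold for 0 of the 10, where 3.94 percent of all genes did. The spread between pools of 1 group was not measured, so small differences cannot be told apart from it.

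**Figure D4:**
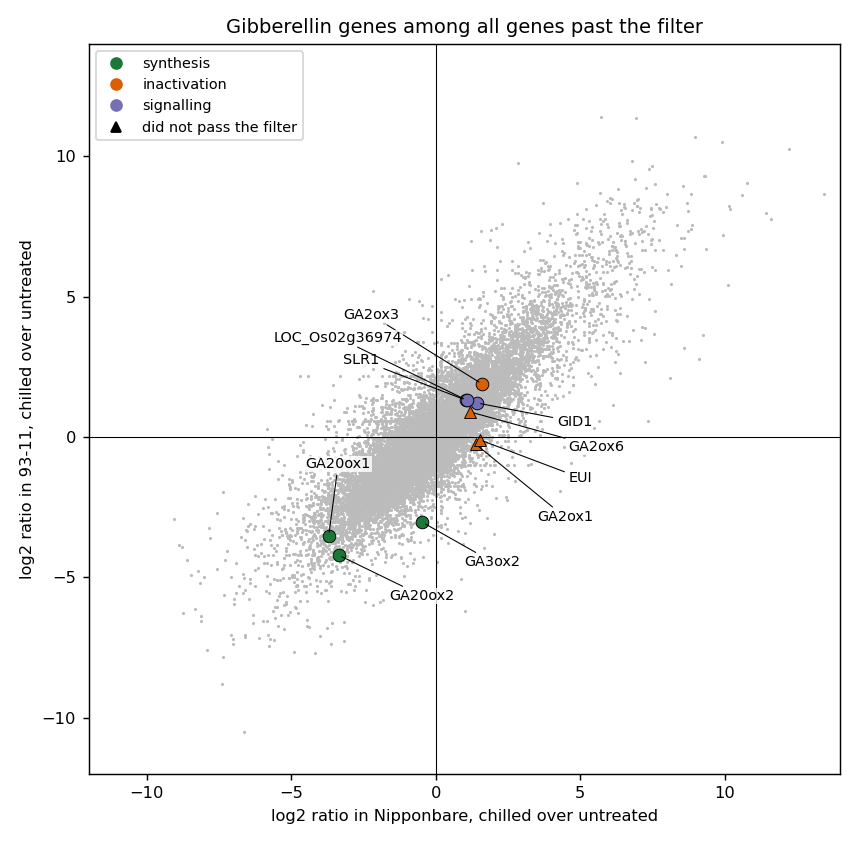
Log2 ratio, chilled over untreated, in 93-11 (y axis) and in Nipponbare (x axis) of every gene past the filter (grey) and of the 10 genes, coloured by role, with triangles for the 3 that did not pass the filter. GA20ox1 and GA20ox2 lie at low values in both cultivars, GA3ox2 at a low value in 93-11, and the signalling loci lie near each other within the cloud.

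Set among the genes past the filter, which GA20ox1 and GA20ox2 passed only through libraries where they are high, the log2 ratio of GA20ox2 exceeded 1.3 percent of genes in 93-11 and 3.8 percent in Nipponbare. GA20ox1 exceeded 2.5 percent in 93-11 and 2.8 percent in Nipponbare, and GA3ox2 exceeded 3.9 percent in 93-11 and 41.4 percent in Nipponbare. GA2ox3 exceeded 86.1 percent in 93-11 and 84.9 percent in Nipponbare. SLR1 exceeded 79.8 percent in 93-11 and 77.4 percent in Nipponbare.

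The last question was whether levels differed between 93-11 and Nipponbare. By limma's cultivar term 0 of the 7 tested genes passed, where 5.48 percent of all tested genes did. At an unadjusted p under 0.05 there were 3 of the 7, where 17.7 percent of all tested genes were. Voom called 1 of the 7, GA3ox2, where it called 7.71 percent of all tested genes. GA3ox2 passed the filter only through 93-11, which favours a higher level there, so this call is no independent evidence. With no filter its cultivar term had a limma adjusted p = 0.23. GA3ox2 had 1.96 ± 0.56 (93-11 minus Nipponbare, limma adjusted p = 0.154, higher in 93-11 in both conditions, range over alternatives 0.034 to 1.0). GA2ox3 had -1.09 ± 0.27 (limma adjusted p = 0.113, lower in 93-11 in both conditions, range 0.0747 to 1.0). SLR1 had 0.65 ± 0.21 (limma adjusted p = 0.194, higher in 93-11 in both conditions, range 0.146 to 1.0).

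By size, 1 gene was higher and 1 lower beyond 2-fold in untreated 93-11 than in untreated Nipponbare, where 2.55 and 5.32 percent of all genes were. GA3ox2 was 22.9-fold higher in untreated 93-11 (log2 ratio 4.52, 3.60 to 5.83). GA2ox3 was 3.25-fold lower (-1.70, -2.46 to -1.02). GA20ox2 was 1.94-fold higher (0.95, 0.61 to 1.31) and GA20ox1 1.30-fold lower (-0.38, -0.66 to -0.11), neither beyond 2-fold. Between the chilled libraries 0 of the 10 genes had a whole interval beyond 2-fold, where 9.78 percent of all genes did. Few reads widened these intervals, and some ratios themselves lay beyond 2-fold. GA3ox2 was 3.82-fold higher in chilled 93-11 than in chilled Nipponbare (log2 ratio 1.94, 0.57 to 3.81). GA2ox3 was 2.66-fold lower (-1.41, -1.87 to -0.99) and GA2ox6 2.07-fold lower (-1.05, -2.33 to 0.04). Which genome the 93-11 reads were aligned to is unknown here, and its part in these values was not tested.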

How the data were processed

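RNA was measured in 4 libraries of oligo(dT)-selected messenger RNA, 1 pool per group, per the labels' protocols. The deposited values were taken as RPKM, a unit the file headers do not name and the whole reads below bear out. The submitters' processing notes list Bowtie2 2.0.6, TopHat2 2.0.9 and HTSeq 0.5.4p3. Build, annotation and strand handling are unknown here, and no coordinates are printed. No sequences of these genes were used here.

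Whole reads were worked out from the RPKM: 1 gene length and 1 total per library turned the values of 36941 of 36941 genes above 0 into whole numbers. With 1 total shifted by about 1 or 2 percent, 4 and 8 of 500 genes could be solved. These 500 were drawn from genes well covered in all 4 libraries, so they cannot be set against the share over all genes above 0. Reads are known up to a common whole factor per gene and sum to 97.7 to 98.1 percent of the totals. Reads multiplied by PCR are not separate molecules.

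The design allowed for counts or RPKM, and its RPKM test was used. TMM factors (trims 0.3 and 0.05) came from these reads. Limma 3.58.1 in R 4.3.3 used an intensity trend and a pseudocount of 1. It had 1 residual degree of freedom, which is the disagreement between cultivars (for the cultivar term, between conditions), plus a prior worth 4.13. Tested on simulated data, it made false calls more often than the threshold states. Ratios used 0.5 added reads, with intervals from SciPy 1.17.1.

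The 10 genes and the other lists were chosen with earlier results of these data known. All 10 are named, other pathway genes only where RefSeq places the name, and for the gene with the largest fitted chilling change the 2 nearest in level. Alternatives were 4 other scalings, a pseudocount of 0.1, no filter, no trend, voom, a single model term and, for ratios, 1 added read.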

Additional observations from a re-analysis of the deposited data

Results flagged for a closer look

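Among the 10 genes and the other pathway loci past the filter, 4 loci had a ratio of chilled to untreated that pointed one way in 93-11 and the other way in Nipponbare, each from 1 library per group, and the difference was not tested. EUI had log2 ratios of -0.10 in 93-11 and 1.52 in Nipponbare, a difference of -1.62 (counting interval -2.89 to -0.35). Its 93-11 ratio has an interval from -1.11 to 0.84 and was 0.59 when scaled to reference loci, which ends the opposite directions. GA2ox1 had -0.26 in 93-11 and 1.39 in Nipponbare, a difference of -1.66 (-5.21 to 1.89), from at most 4 reads in a library, and its 93-11 ratio was 0.43 when scaled to reference loci. LOC_Os05g34854, a pathway locus without a placed name, had 100 reads in chilled and 82 in untreated 93-11, and 22 in chilled and 64 in untreated Nipponbare, a difference of 2.22 (1.41 to 3.03). LOC_Os01g22910, another, had 0 reads in chilled and 1 in untreated 93-11, and 23 in chilled and 18 in untreated Nipponbare, so its difference of -1.52 (-6.22 to 3.18) depends on the reads added. These last loci were named after their values were seen.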

How the results depend on the processing

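Chilling called 4496 genes higher and 4605 lower, against 7217 and 2124 when scaled to reference loci, and 2840 lower without the cultivar term, where 2 of the 10 genes rose in place of 4. The cultivar term called 305 genes higher and 762 lower in 93-11, against 107 and 342 with no filter, and 0 and 0 without the treatment term. With voom it called 461 genes higher, and 1 of the 10 genes in place of 0. Of the 10 genes, those higher beyond 2-fold in chilled seedlings numbered 4 in 93-11, and 2 with the deposited values unscaled. In Nipponbare they numbered 3, against 1 with the deposited values unscaled and 5 when scaled to reference loci. With median of ratios scaling 1 gene, in place of 0, had a smaller ratio in 93-11 beyond 2-fold. Of single-gene values, 249 kept their side of the threshold or their counting interval, 22 ratios moved outside it, 3 calls were lost and 2 gained. No called value changed sign, and 3 ratios whose interval held 0 did when scaled to reference loci: GA3ox2 in Nipponbare (0.30 in place of -0.46), and GA2ox1 (0.43 in place of -0.26) and EUI (0.59 in place of -0.10) in 93-11. The cause was not tested. No paired analysis was possible because each group holds 1 library and the labels give no replicate numbers, and leaving out a library leaves no residual degree of freedom. Depth limits GA2ox1, GA2ox6, EUI and GA3ox2 in Nipponbare.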

Other observations

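Of the pathway loci without a placed name, those that rose with chilling were LOC_Os01g11150 and LOC_Os02g41954. Both are listed for inactivation, and were named after their values were seen. LOC_Os01g11150 had 12.8 RPKM in chilled and 1.41 in untreated 93-11, and 4.91 in chilled and 0.158 in untreated Nipponbare (2.44 ± 0.28, limma adjusted p = 0.00324, range over alternatives 0.00187 to 0.0511, the call ending without the cultivar term). LOC_Os02g41954 had 4.03 RPKM in chilled and 0.99 in untreated 93-11, and 8.45 in chilled and 0.917 in untreated Nipponbare (1.82 ± 0.34, limma adjusted p = 0.0123, range over alternatives 0.00605 to 0.0392).

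GA20ox1 had the largest fitted chilling change of the 7 tested genes. By Euclidean distance of log2(RPKM + 1) over the 4 libraries, its nearest genes of the whole table were LOC_Os01g14980 (distance 0.0952) and LOC_Os05g02670 (distance 0.104). LOC_Os01g14980 had 0.626 RPKM in chilled and 6.27 in untreated 93-11, and 0.677 in chilled and 8.60 in untreated Nipponbare. With 4 points this describes likeness of level alone.

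KAO had a log2 ratio of -1.12 in 93-11 and -3.04 in Nipponbare, a difference of 1.92 (counting interval 0.86 to 2.98). It had 37 reads in chilled and 122 in untreated 93-11, and 10 in chilled and 97 in untreated Nipponbare. The ratio of SLR1 to GID1 levels was 2.68 in chilled and 2.51 in untreated 93-11, and 1.20 in chilled and 1.56 in untreated Nipponbare.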
